A study of Mus musculus with 36 samples.

Results

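The miR-34 and miR-449 family was followed in the mouse B3 pre-B cell line, in which the transcription factor Ikaros was made inducible. Its members were taken by name, as every row called miR-34a, miR-34b, miR-34c, miR-449a, miR-449b or miR-449c, on either arm of the hairpin. The rule found 8 of the 469 miRNAs in the table, namely both arms of miR-34a, miR-34b, miR-34c and miR-449a. In the table they carry the mouse prefix, as in mmu-miR-34a-3p and mmu-miR-449a-5p, which is left out from here on. The family was selected on measured values of these data, the line difference of miR-34a-3p at 24 h and the change of that of miR-449a-5p since 0 h, so values at those times are given as a description, without a test.

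Both lines were B3 cells transduced with a mouse stem cell virus (MSCV) retrovirus and sorted for green fluorescent protein (GFP), so each is a mixed pool of one cell line rather than a panel of lines. The Ikaros line carried haemagglutinin-tagged wild type Ikaros fused to the ERt2 hormone-binding domain and followed by IRES and GFP. The control line carried ERt2, IRES and GFP with no Ikaros. The labels give 0.5 uM 4-hydroxytamoxifen (4-OHT), the ligand of ERt2, for all samples, whereas the study's methods describe the 0 h cells as free of the drug. Small RNA was sequenced at 0, 2, 6, 12, 18 and 24 h in 3 samples of each line, which gave 36 samples in 12 groups. The samples of 0 h came from culture batches 4, 5 and 6 and all later samples from batches 1, 2 and 3. The lines were grown side by side, so that samples of one time with the same replicate number shared a batch. Replicates 1, 2 and 4 were batches 4, 5 and 6 at 0 h and batches 1, 2 and 3 later. The methods state that libraries were made and sequenced on 2 occasions, with some samples repeated on both, and that the values were corrected for this. In the study's design scheme the control samples of 2 h to 18 h belong to one occasion and the Ikaros samples to the other, apart from the repeated ones. The labels do not give the occasion of a sample, so its part in the line differences was not tested.

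A microRNA recognises its target mRNAs mainly through the seed, bases 2 to 8 of the mature strand, so miRNAs with one seed are expected to share many targets. Each hairpin yields a 5p and a 3p arm, and usually one of them is retained in the silencing complex. The miR-34 genes are known as direct transcriptional targets of p53 that restrain the cell cycle, and miR-34a is known to repress Foxp1 in B cell precursors. The miR-449 cluster has the same seed and is best known from multiciliated epithelia. Mature sequences are shown here because the grouping into a family rests on the seed, printed in capitals. RefSeq (build GRCm38.p6) gave a mature sequence for 7 of the 8 members, all except miR-34c-5p.
miR-34a-5p: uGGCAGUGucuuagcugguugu
miR-34b-5p: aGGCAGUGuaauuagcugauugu
miR-449a-5p: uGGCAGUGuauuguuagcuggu
miR-34a-3p: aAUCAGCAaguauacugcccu
miR-34b-3p: aAUCACUAacuccacugccauc
miR-34c-3p: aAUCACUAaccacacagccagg
miR-449a-3p: cAGCUAACaugcgacugcucuc

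The 3 printed 5p arms had the seed GGCAGUG, and no other of the 391 rows with a RefSeq sequence had it. Read from the 5′ end without gaps, miR-34a-5p and miR-449a-5p shared their first 9 bases and 15 of 22 positions. The 3p arms did not carry this seed. MiR-34b-3p and miR-34c-3p shared a seed of their own, AUCACUA, and 17 of 22 positions, while the seeds of miR-34a-3p (AUCAGCA) and miR-449a-3p (AGCUAAC) were each found in no other row. The shared seed is thus a property of the 3 printed 5p arms, and the 3p rows are partner strands with other seeds.

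The hairpins lie at 3 loci of the GRCm38 build. Mir34a occupies 150068454 to 150068555 of chromosome 4 (plus strand), and its end overlaps an exon of Gm37795, a transcript still to be classified. Mir34b (51103562 to 51103645) and Mir34c (51103034 to 51103110) lie on the minus strand of chromosome 9 with 451 bases between them, inside an intron of Btg4, which runs on the opposite strand. Mir449a occupies 113037534 to 113037624 of chromosome 13 (plus strand), within an intron of Cdc20b and on its strand. The miRNAs of Mir449b and Mir449c had no row under these names, and the loci of these hairpins were not looked up.

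The values are on a log2 scale after normalization by the authors, and read counts behind single values were not analysed here, so the depth behind each value is unknown. Sample medians over all miRNAs lay between 3.70 and 4.15, and the median standard deviation within groups was 0.36. All 5 listed haematopoietic and lymphoid markers had a row, among them miR-181a-5p, which lay between 17.5 and 18.7 in all 36 samples, and miR-150-5p, which was low at 3.07 to 4.62. Of 17 listed markers of other cell types 7 had a row, and the highest of them was miR-9-5p, known from neurons, at 12.7 to 13.9. The red cell marker miR-451a had no row. In pools of cells such as these, a smaller number of cells with a miRNA and less of it per cell cannot be told apart.

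The family's levels reached from the bottom of the table to about the middle of its log2 range, in which values ran from 0.09 to 19.3. Over the 18 control samples of all times, miR-34c-5p had a mean of 10.35 ± 0.24 (SD) and miR-34a-5p of 10.26 ± 0.17, and these did not differ beyond their spread. They ranked 72nd and 70th of 469 miRNAs by their mean over all samples. Next came miR-34b-5p at 5.48 ± 0.37, miR-34a-3p at 5.08 ± 0.53 and miR-34b-3p at 4.77 ± 0.45, each within the spread of its neighbour. MiR-34c-3p (3.93 ± 0.36) and miR-449a-5p (3.67 ± 0.29) were likewise not separated, and miR-449a-3p (0.71 ± 0.28) had the lowest mean of the whole table. Of the members with the GGCAGUG seed, miR-34a-5p was therefore higher than miR-449a-5p by more than 6 units on the log2 scale in the control line. The mature strands are 21 to 23 bases long, so levels were not divided by length.

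**Figure D1:**
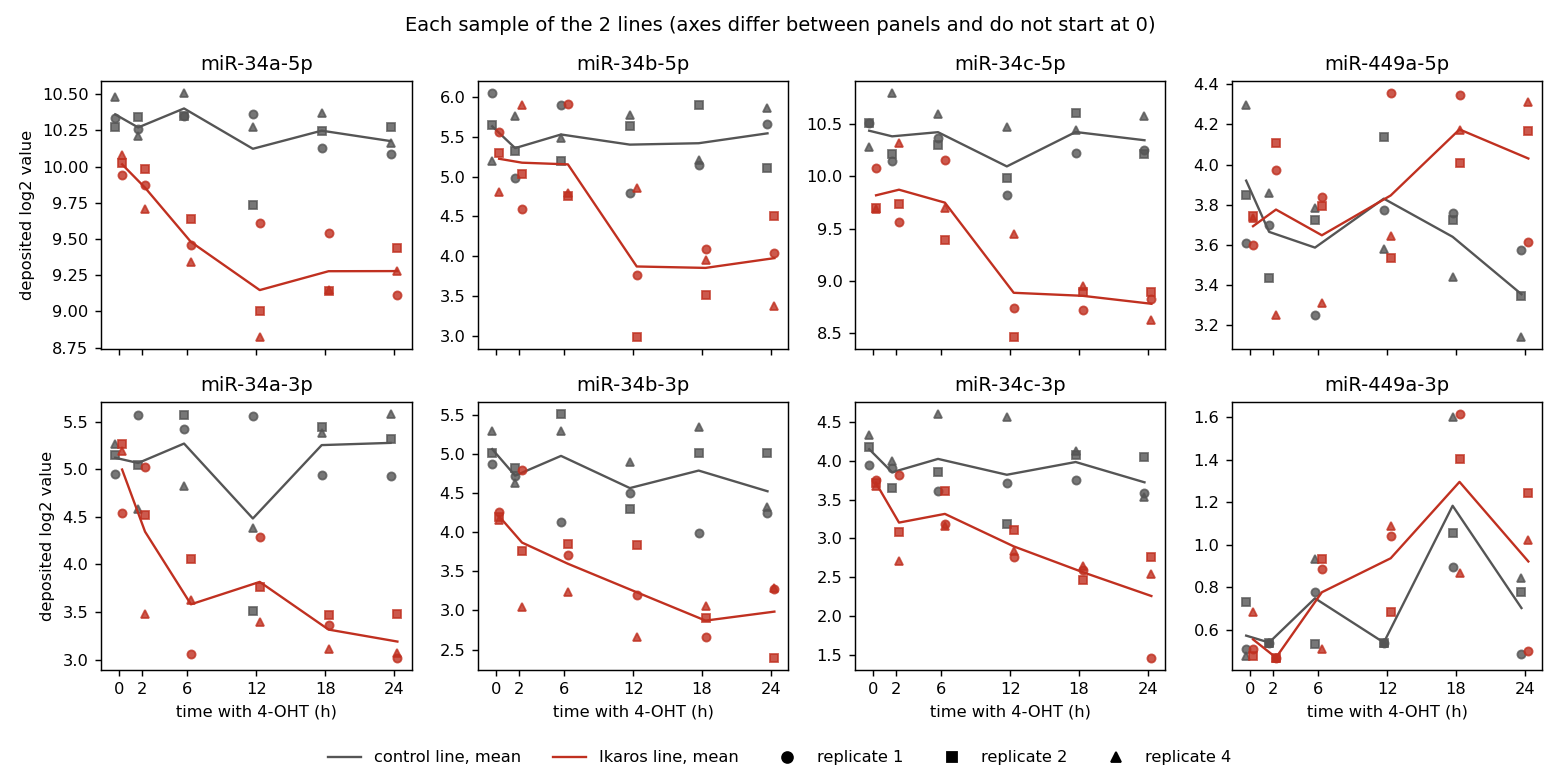
Deposited log2 value of each family member (y) against hours with 4-OHT (x), in 4 columns for the hairpins with the 5p arm above and the 3p arm below. Symbols are single samples, 3 for each line and time, and lines join the group means. At 18 h all 3 Ikaros samples lie below all 3 control samples for each of the 6 miR-34 arms, and above them for miR-449a-5p. Separation downwards was seen in 25.4% of all miRNAs at that time, and the share separated upwards is not given.

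The first comparison was between the lines at each time under the same drug, and asked when the family came to differ. All 6 miR-34 arms were lower in the Ikaros line at 18 h and all 6 passed the test (limma with Benjamini-Hochberg adjustment over 469 miRNAs). Their log2 differences (Ikaros minus control) ran from -0.97 to -1.94. Of all miRNAs 16.8% of miRNAs passed as lower at 18 h, where 79 were lower and 61 higher. With each sample's median subtracted that split was 56 lower and 86 higher, and the 6 miR-34 arms still passed as lower, at -0.80 to -1.77. The median difference of the 6 arms was -1.57, against -0.01 for all miRNAs. Neither arm of miR-449a was lower.

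MiR-34a-5p is the main strand of its hairpin and a family member with the shared seed. At 18 h its values were 10.13, 10.24 and 10.37 in the control samples of replicates 1, 2 and 4, and 9.54, 9.14 and 9.15 in the Ikaros samples. All 3 Ikaros samples lay below all 3 control samples, and the same was true at each of the other times, 0 h included. Of all miRNAs 9.17% were separated in this way at 2 h and 17.5% at 6 h, and 9.81% and 25.4% in the later comparisons of 12 h and 18 h. The shares at 0 h and 24 h were not computed. The difference at 18 h was -0.97 (SE 0.17, adjusted p = 5.07e-05), or 51.0% of the control level.

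MiR-34a-3p, the partner strand, had 18 h values of 4.95, 5.44 and 5.38 in the control samples and of 3.36, 3.47 and 3.11 in the Ikaros samples. The groups did not overlap, and 25.4% of all miRNAs were separated downwards in this way at 18 h. The difference of -1.94 (SE 0.39, adjusted p = 0.000238) left 26.1% of the control level.

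MiR-34c-5p is the abundant strand of the Mir34b and Mir34c locus. Its 18 h values were 10.22, 10.61 and 10.44 in the control samples against 8.73, 8.89 and 8.96 with Ikaros. The groups were apart by more than the range within either, and the difference was -1.57 (SE 0.23, adjusted p = 4.01e-06), or 33.8% of the control level. Its partner miR-34c-3p was at 3.75, 4.08 and 4.13 against 2.59, 2.46 and 2.65, a difference of -1.42 (SE 0.32, adjusted p = 0.000866) without overlap. The same share of 25.4% of all miRNAs stands beside both arms.

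MiR-34b-5p, with the shared seed, gave 5.14, 5.90 and 5.21 in the control samples at 18 h and 4.09, 3.51 and 3.96 in the Ikaros samples. The samples did not overlap and the difference was -1.57 (SE 0.41, adjusted p = 0.00382). Without replicate 2 it was -1.15 and no longer passed (adjusted p = 0.156), the only miR-34 arm to lose its call at 18 h in any of the 9 alternative fits. MiR-34b-3p gave 3.99, 5.02 and 5.35 against 2.66, 2.90 and 3.05, also without overlap, and differed by -1.92 (SE 0.38, adjusted p = 0.000238). Here too, 25.4% of all miRNAs were separated downwards at 18 h.

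MiR-449a-5p has the seed of miR-34a-5p and did not follow it. Its line difference was 0.11 at 2 h, 0.06 at 6 h and 0.02 at 12 h, none of which passed. At 18 h its control samples were at 3.76, 3.72 and 3.44 and its Ikaros samples at 4.35, 4.01 and 4.17. The Ikaros samples were all above the control samples. The share of all miRNAs separated upwards is not given here, while 25.4% were separated downwards at 18 h. The difference of 0.54 (SE 0.26, 95% interval 0.01 to 1.06) did not pass (adjusted p = 0.117). It did pass with each sample's median subtracted (0.71, adjusted p = 0.0451) and with quantile normalization (0.73, adjusted p = 0.0337), and its adjusted p ranged from 0.0337 to 0.291 over the 9 alternatives. MiR-449a-3p differed by 0.11 (95% interval -0.32 to 0.54, adjusted p = 0.725).

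**Figure D2:**
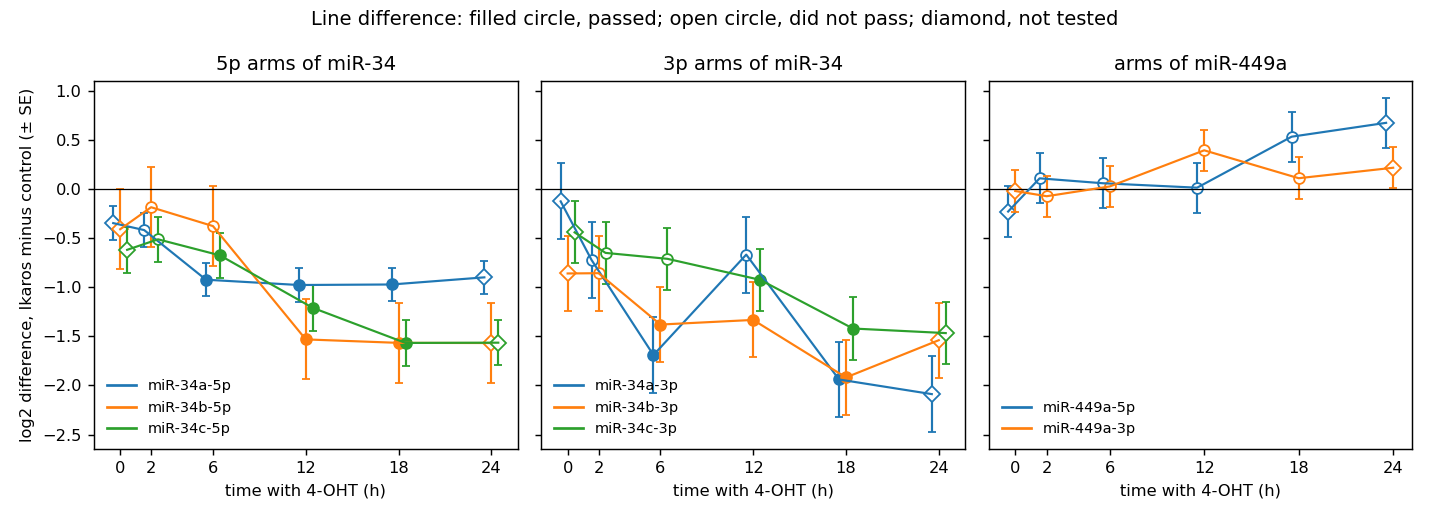
Ikaros minus control difference in log2 units (y, with bars of 1 SE from the limma model) against hours with 4-OHT (x) for the 5p arms of miR-34, the 3p arms of miR-34 and the arms of miR-449a. Filled circles passed the test, open circles did not, and diamonds at 0 h and 24 h were not tested. All 6 miR-34 arms are filled at 18 h and none at 2 h, and no circle of miR-449a is filled.

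Fewer members passed at the earlier times. At 2 h no member passed, where 11.3% of all miRNAs did, although the 6 miR-34 arms all had negative differences, from -0.18 for miR-34b-5p to -0.86 for miR-34b-3p. At 6 h 4 of the 8 members passed, all lower, against 7.25% of the table. These were miR-34a-5p at -0.92 (SE 0.17, adjusted p = 0.000212), miR-34a-3p at -1.69 (SE 0.39, adjusted p = 0.00233), miR-34b-3p at -1.38 (SE 0.38, adjusted p = 0.0123) and miR-34c-5p at -0.67 (SE 0.23, adjusted p = 0.0451). At 12 h 5 members passed as lower, against 9.17% of the table, and miR-34a-3p alone of the miR-34 arms did not (-0.67, SE 0.39, adjusted p = 0.224). With the median subtracted the table's split at 6 h went from 34 lower and 37 higher to 20 and 46, and with quantile normalization the split at 12 h went from 43 lower and 59 higher to 50 and 41.

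These earlier calls rested on few samples. That of miR-34c-5p at 6 h was lost with sample medians subtracted (adjusted p = 0.148). Leaving out replicate 1, 2 or 4 left 3, 1 and 2 members past the threshold at 6 h and 4, 2 and 3 at 12 h, and miR-34a-5p was the only member that passed in all of these fits at both times. Leaving out a replicate also takes samples out of every other group. The control samples of miR-34a-3p at 12 h were spread over 5.56, 3.51 and 4.38, and the lowest of these lay within the Ikaros range of 3.40 to 4.29.

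Within the Ikaros line miR-34b-5p was spread widely from 2 h to 12 h, while miR-34c-5p and miR-34a-5p were spread most at 12 h. MiR-34b-5p had a mean of 5.18 ± 0.66 at 2 h and 5.15 ± 0.66 at 6 h, then of 3.87 ± 0.94 (12 h) and 3.85 ± 0.30 (18 h; SD, n = 3). Its samples went opposite ways between 2 h and 6 h, from 4.60 to 5.92 in replicate 1 and from 5.90 to 4.79 in replicate 4, and the latter was still at 4.86 at 12 h. MiR-34c-5p was at 9.87 ± 0.40, 9.75 ± 0.38, 8.89 ± 0.51 and 8.86 ± 0.12 at these times, and miR-34a-5p at 9.85 ± 0.14, 9.48 ± 0.15, 9.15 ± 0.41 and 9.28 ± 0.23. Changes between neighbouring times were not tested.

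The same samples were also set out as pairs that shared a culture batch, which adds no independent evidence. Over the 12 pairs of 2 h to 18 h, miR-34a-5p, miR-34c-5p and miR-34c-3p were lower in the Ikaros line in 12 of 12, miR-34a-3p and miR-34b-3p in 11 and miR-34b-5p in 10. MiR-449a-5p was lower in 3 of the 12 pairs. The 12 pairs come from only 3 culture batches, and such counts were not computed for all miRNAs.

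The second comparison followed each line on its own between 2 h and 18 h. With Ikaros 4 of the 8 members passed, against 11.5% of the table. MiR-34c-5p fell by 1.01 on the log2 scale (SE 0.23, adjusted p = 0.00345), miR-34b-5p fell by 1.32 (SE 0.41, adjusted p = 0.0283) and miR-34a-5p fell by 0.58 (SE 0.17, adjusted p = 0.0211). These are the 5p arms of miR-34. The 3p arms had changes of -1.03 for miR-34a-3p (adjusted p = 0.0819), -1.00 for miR-34b-3p (adjusted p = 0.0883) and -0.64 for miR-34c-3p (adjusted p = 0.199). Without replicate 2 none of these changes passed, and without replicate 4 miR-34a-5p and miR-34b-5p did not. Quantile normalization also ended the calls of miR-34a-5p and miR-34b-5p (adjusted p = 0.157 and 0.0762), and median subtraction that of miR-34a-5p (adjusted p = 0.08).

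The fourth call was miR-449a-3p, higher by 0.83 (SE 0.21, adjusted p = 0.00804), and it stands on repeated values. All 3 Ikaros samples of 2 h had the value 0.468, and all 6 control samples of 2 h and 12 h had the value 0.539, so these groups had no spread. Its control line went up by 0.64 over the same hours (adjusted p = 0.319). No direction is drawn from this row.

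In the control line none of the 8 members passed between 2 h and 18 h, and 0% of the 469 miRNAs did by limma (32 had an unadjusted p under 0.05). The miR-34 arms changed there by -0.02 to 0.19, with 95% intervals that reached from -0.77 to 0.98 across the 6 arms.

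The change of the line difference between 2 h and 18 h compares the courses directly. None of the 8 members passed, where 4.05% of all miRNAs did. The 6 miR-34 arms had changes from -0.55 (miR-34a-5p) to -1.38 (miR-34b-5p), with a median of -1.06 against -0.10 for all miRNAs. MiR-34c-5p came closest, at -1.06 (SE 0.33, adjusted p = 0.0591). With the culture batch as a block it passed (adjusted p = 0.0269), as it did among miRNAs with a mean of at least 2 (adjusted p = 0.0484) and without the samples of 12 h (adjusted p = 0.0231). The miR-34 arms thus differed between the lines at 18 h, while a change of that difference since 2 h did not pass.

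The 5p arms were also compared within samples, as a description with no test. The seed of miR-34c-5p, which had no sequence here, was not checked. For each pair of samples from one culture batch at 2 h to 18 h, the line difference of miR-449a-5p was subtracted from that of a miR-34 5p arm. The mean over 12 pairs was -1.00 ± 0.60 (SD) for miR-34a-5p, -1.09 ± 0.94 for miR-34b-5p and -1.17 ± 0.70 for miR-34c-5p. In each case 11 of 12 pairs were negative. The 12 pairs come from 3 culture batches, and pairs of one batch are not independent. Without any of the replicates the means stayed between -0.87 and -1.34.

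The 0 h and 24 h values extend the course. At 0 h the 6 miR-34 arms differed by -0.12 (miR-34a-3p) to -0.86 (miR-34b-3p). In miR-34a-5p, miR-34b-3p, miR-34c-5p and miR-34c-3p the Ikaros samples lay below all control samples. MiR-34c-5p, for example, was at 10.51, 10.51 and 10.28 in control samples and at 10.08, 9.69 and 9.68 in Ikaros samples. The share of all miRNAs separated in this way at 0 h was not computed, so it is unknown whether this is unusual. At 24 h the differences were -0.90 for miR-34a-5p, -2.09 for miR-34a-3p, -1.57 for miR-34b-5p, -1.54 for miR-34b-3p, -1.56 for miR-34c-5p and -1.47 for miR-34c-3p. The line difference of miR-449a-5p was -0.23 at 0 h and 0.68 after 24 h. Its last control samples were at 3.57, 3.35 and 3.14 and its last Ikaros samples at 3.61, 4.17 and 4.31, so that the lowest Ikaros sample and the highest control sample nearly met. These values include the contrasts that led to the family being taken up.

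Both arms of a hairpin are cut from one transcript, and the difference of the arms (5p minus 3p) was followed in the same way over the 129 hairpins with both arms in the table. MiR-34c-5p exceeded its partner by 5.99 to 6.67 in the group means and miR-34a-5p by 4.90 to 6.09, whereas miR-34b-5p exceeded miR-34b-3p by only 0.55 to 1.56. For miR-34a the arm difference at 18 h was 5.96 ± 0.27 in the Ikaros line against 4.99 ± 0.19 in the control line (SD, n = 3). The difference of 0.97 (SE 0.34, 95% interval 0.28 to 1.66) did not pass (adjusted p = 0.0878), and 1.55% of the 129 hairpins did at this time. It was 0.77 at 6 h (adjusted p = 0.279) and -0.31 at 12 h (adjusted p = 0.665). At 24 h it was 1.19, a value that includes the 24 h samples of miR-34a-3p for which the family was taken up. The arm comparison itself was chosen after seeing the data. For miR-34b and miR-34c the 18 h values were 0.35 (95% interval -1.03 to 1.73) and -0.15 (-0.95 to 0.66), so the data leave room for arm differences of either sign there.

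**Figure D3:**
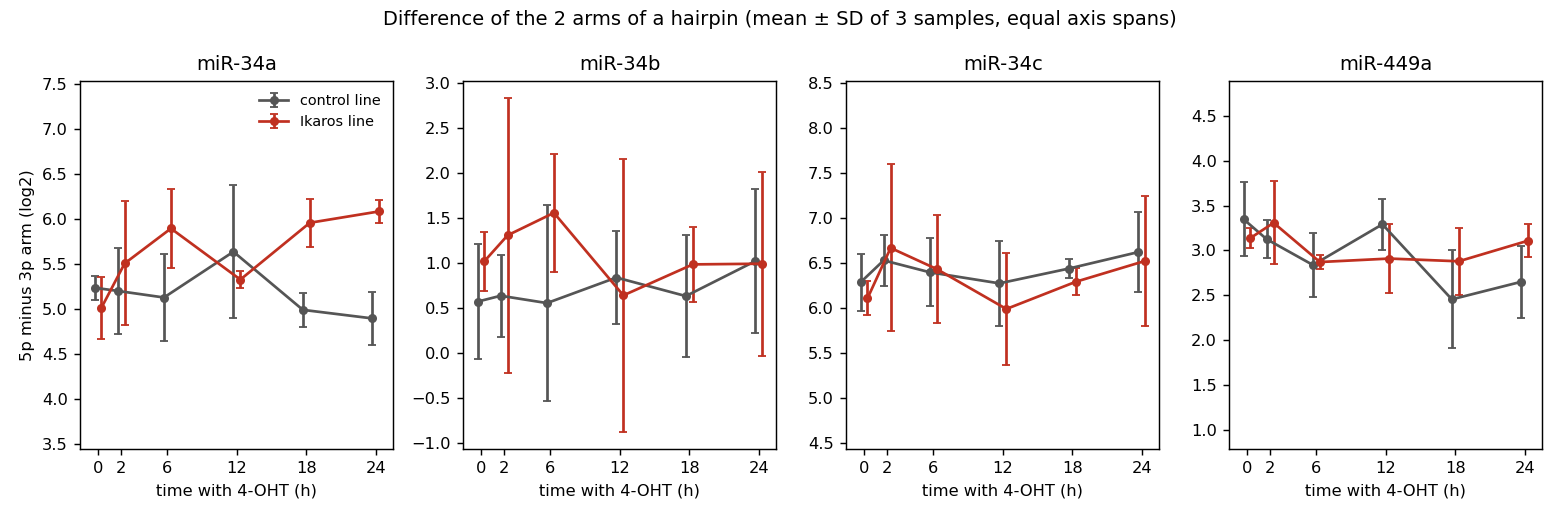
Difference of the 5p and the 3p arm in log2 units (y, mean with bars of 1 SD, n = 3) against hours with 4-OHT (x) for the 4 hairpins, with axes of equal span that do not start at 0. For miR-34a at 18 h the means are 5.96 with Ikaros and 4.99 in control samples, a difference that did not pass. The lines overlap within their bars for miR-34b and miR-34c.

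The members also varied within groups. When each value was taken as its deviation from the mean of its group, miR-34b-5p and miR-34c-5p, whose hairpins are neighbours, had r = 0.84 over the 36 samples. The arms of miR-34a had r = 0.61. The arms of miR-34b had r = -0.53 and those of miR-34c r = -0.03, while over all 129 hairpins with both arms the median was 0.04, with the middle of the distribution from -0.16 to 0.33. The rows were measured in the same libraries and the samples share culture batches. These correlations are descriptions, and no test was made.

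**Figure D4:**
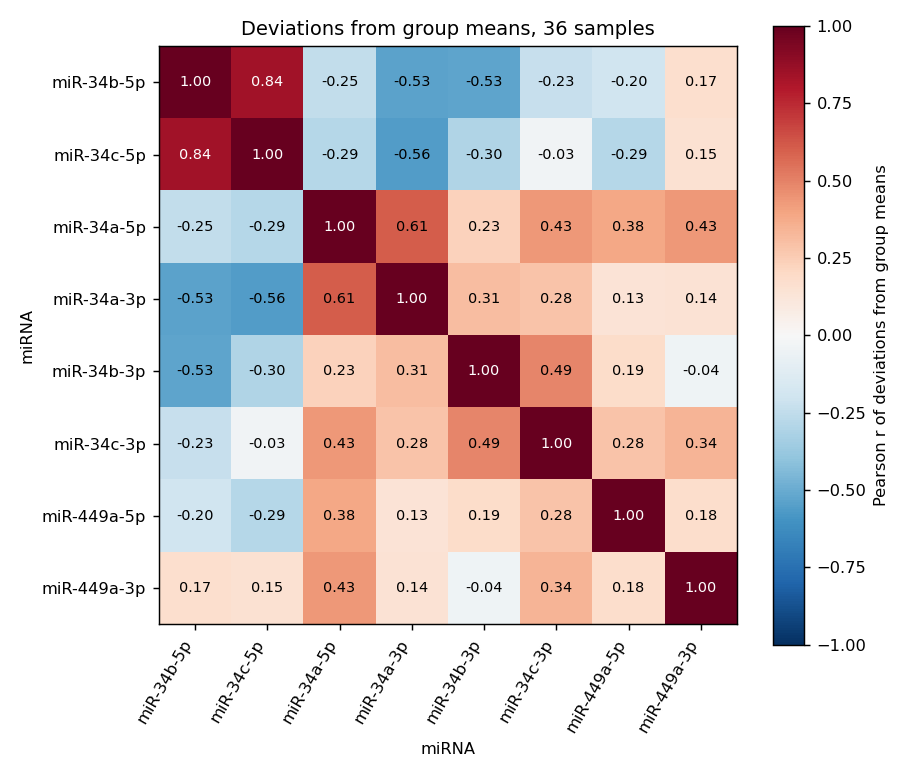
Pearson correlation of deviations from group means over 36 samples for each pair of members (both axes list the members), from blue (-1) to red (1). MiR-34b-5p and miR-34c-5p go together (0.84) and both go against miR-34a-3p (-0.53 and -0.56).

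A large part of this variation lay on a single axis. The first axis of the deviations of all 469 miRNAs held 36.5% of their sum of squares, and the Ikaros samples of 12 h from replicates 4 and 1 were farthest out on it, at 0.42 and -0.33. MiR-34b-5p (r = 0.75) and miR-34c-5p (r = 0.67) went with this axis and miR-34a-5p (-0.68), miR-34a-3p (-0.72) and miR-34b-3p (-0.56) against it. The Ikaros samples of 2 h from replicates 4 and 1 (0.32 and -0.25) and of 6 h from replicate 1 (0.24) were also far out. With all samples of 12 h left out, an alternative chosen after seeing the data, 4 members passed at 6 h and 6 at 18 h, as before. At 2 h, and for the change of the line difference, 1 member passed instead of 0. That fit keeps the samples of 2 h and 6 h, so it does not remove the axis. The part of this axis in the results was not tested.

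By Pearson correlation over all 36 samples, in which line and time differences enter too, the row nearest to miR-34c-5p was miR-34b-5p (r = 0.92), followed by miR-19b-2-5p (0.90), miR-19b-1-5p, miR-23a-5p and miR-92a-1-5p. MiR-34b-5p had miR-19a-5p (0.87), miR-19b-2-5p, miR-24-2-5p and miR-20a-5p after miR-34c-5p. The 5 nearest to miR-34a-5p were miR-320-3p (0.88), miR-34a-3p (0.88), miR-27a-5p, let-7f-1-3p and miR-34b-3p. MiR-34a-3p had miR-34a-5p, miR-467b-5p, miR-363-3p, let-7f-1-3p and miR-320-3p. MiR-130b-5p headed the lists of miR-34b-3p (0.90, then miR-363-3p, miR-34c-3p, miR-34a-5p and miR-467b-5p) and miR-34c-3p (0.87, then miR-34b-3p, miR-582-5p, miR-34a-5p and miR-467c-5p). The 5p arms of the chromosome 9 locus thus had 5p arms as nearest rows, whereas the others had a mixture. MiR-449a-5p had no row as near, the nearest being miR-340-5p (0.61), miR-25-3p, miR-26b-5p, miR-181b-2-3p and miR-542-3p. For miR-449a-3p they were miR-151-3p (0.57), miR-201-5p, miR-450a-1-3p, miR-497-5p and miR-29c-3p.

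The p53 protein is known to raise the miR-34 genes, so other miRNAs described as raised or matured through p53 were listed beside them. Of 13 such miRNAs 10 had a row. None passed as lower at any of the 4 tested times in the values as deposited. At 18 h 5 of the 10 passed as higher, against 13% of the table, with a median difference of 0.37 over the 10. MiR-22-3p was higher by 1.09 (SE 0.13, adjusted p = 1.42e-07), miR-149-5p by 0.74 (SE 0.22, adjusted p = 0.0123) and miR-194-5p by 0.55 (SE 0.19, adjusted p = 0.0317). The others that passed were miR-15a-5p (0.43) and miR-107-3p (0.33). MiR-16-5p was among 4 that passed as higher at 12 h (0.43, adjusted p = 0.0164), where 12.6% of the table did. At 6 h 2 of the 10 passed as higher, against 7.89% of the table. At 2 h 2 passed as higher, against 7.25%, and one of them was miR-143-3p at 0.95 (adjusted p = 0.047). MiR-22-3p and miR-149-5p were the 2 that passed as higher for the change of that difference since 2 h, at 1.11 and 1.08, against 1.71% of the table. Over the 9 alternatives 2 to 6 of the 10 passed as higher at 18 h, with 2 when replicate 1, 2 or 4 was left out, and miR-22-3p was among them each time. With a replicate left out, the lowest limma adjusted p at 18 h was 0.0943 for miR-194-5p and 0.128 for miR-107-3p. MiR-16-5p turned with quantile normalization and passed as lower at 6 h and 18 h (-0.69 at both). The level of p53 was not analysed here, and its part in the family's difference was not tested.

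Among the markers of other cell types, 2 of the 4 measured epithelial miRNAs passed as lower in the Ikaros line at 18 h as well, where 16.8% of the table did. These were miR-200b-3p at -1.54 (adjusted p = 0.00085) and miR-429-3p at -0.91 (adjusted p = 0.00333), while miR-200a-3p was at -0.58 (adjusted p = 0.24) and miR-200c-3p at -0.21 (adjusted p = 0.562). The summed level of the 4, on the log2 scale, lay between 7.10 and 7.69 in the control line and between 6.55 and 6.60 in the Ikaros line at 18 h. At 0 h it already lay between 7.24 and 7.85 against 6.46 to 6.66, whereas at 12 h the ranges met, with 6.52 to 7.41 against 6.36 to 6.70. The epithelial marker miR-205-5p had no row. The part of these miRNAs in the family's difference was not tested.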

How the data were processed

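Small RNA libraries (TruSeq Small RNA kit) were sequenced on an Illumina HiSeq. The authors mapped reads to mouse miRBase entries with Novoalign and counted them with multiBamCov of bedtools. NOISeq served to drop rare miRNAs, cqn to adjust for GC content, TMM to scale the samples and ComBat to remove the sequencing occasion, after which technical replicates were averaged. These steps can shrink or spread differences between lines. The deposited log2 values (469 miRNAs, 36 samples) were used unchanged, and their submitters' notes name mm10.

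The members and lists were chosen with earlier results of these data known. Named rows were all members, rows with a member's seed, the 5 nearest rows by Pearson correlation, and the listed p53 miRNAs that passed a test. Means of 12 groups were fitted in a single limma model (version 3.58.1 under R 4.3.3, trend = TRUE, 24 residual degrees of freedom) with Benjamini-Hochberg adjustment over 469 miRNAs and a threshold of 0.05. The arm differences and the comparison with miR-449a-5p within sample pairs were chosen after seeing the data. Same-numbered samples of one time shared a culture batch per the labels, and their deviations from group means correlated at r = 0.06 (18 h) to 0.41 (6 h) over all miRNAs. P-values rest on the spread between the 3 culture batches within each group, pooled over the 12 groups. Each line was its own transduced cell pool, so no p-value measures the spread between such pools. Alternatives were other scalings, the culture batch as a block, a filter on low means, other sets of samples and each replicate left out. Whether the files hold further family members was settled by name only. The miRNA listed as miR-142a was taken from the rows miR-142-3p and miR-142-5p.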

Additional observations from a re-analysis of the deposited data

How the results depend on the processing

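For the single members' limma values of 2 h to 18 h that the text gives, 324 of 368 comparisons with an alternative kept direction and side of the threshold, 27 no longer passed, 8 newly passed and 9 changed sign. At 18 h the number of members past the threshold was 6, and 5 to 6 when a replicate was left out. At 2 h it was 0, and 1 without the samples of 12 h, an alternative chosen after seeing the data. At 6 h it was 1 to 3 instead of 4 and at 12 h 2 to 4 instead of 5 with a replicate left out. For the change in the Ikaros line from 2 h to 18 h it was 4, but 2 with quantile normalization, 2 with only the samples of 2 h to 18 h in the fit and 0 to 3 with a replicate left out. For the change of the line difference it was 0, and 1 (miR-34c-5p) when the culture batch entered as a block, 1 with the low-mean filter and 1 without the 12 h samples. With a replicate block the value was the same -1.06 (adjusted p = 0.0269). Pairing by culture batch changed no other call of the members.

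Leaving out a replicate leaves fewer samples in each group. Over all miRNAs the calls were then 18 to 34 instead of 53 at 2 h, 22 to 41 instead of 71 at 6 h, 34 to 91 instead of 102 at 12 h, 69 to 125 instead of 140 at 18 h, 17 to 37 instead of 54 within the Ikaros line, 3 to 7 instead of 19 for the change of the line difference and 0 to 1 in the control line. Without the 12 h samples 34 miRNAs passed for the change of the line difference.

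Subtracting sample medians moved the median difference of all miRNAs at 18 h from -0.01 to 0.16. The described 24 h differences were then -0.66 for miR-34a-5p and -1.33 for miR-34c-5p. That of miR-34b-3p was -1.00 to -1.82 with a replicate left out, the first value without replicate 2. The cause of these moves was not tested.

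The tested family values that changed sign were small and had not passed. With a replicate left out, miR-449a-5p ranged from -0.17 to 0.47 at 2 h, from -0.20 to 0.33 at 6 h and from -0.27 to 0.32 at 12 h (also -0.01 without replicate 4). MiR-449a-3p ranged from -0.19 to 0.53 at 18 h (-0.005 without replicate 2). Between 2 h and 18 h in the control line miR-34a-5p ranged from -0.11 to 0.032 (0.015 without replicate 2) and miR-34a-3p from -0.12 to 0.60. The arm difference of miR-34a at 12 h ranged from -0.72 to 0.025. The described 0 h difference of miR-34a-3p, -0.12, was 0.022 without replicate 1. Of the p53 list 3 passed as higher at 18 h with quantile normalization, where miR-16-5p had -0.69 at 6 h and 18 h and -0.23 at 12 h. The depth of single values is unknown, which limits what can be said of rows as low as miR-449a-3p.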
